A study of Mus musculus with 10 samples.

Results

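The interleukin 1 family cytokines and receptors are described here in primary mouse keratinocytes. The genes are the ligands Il1a, Il1b, Il18 and Il33, the receptor antagonist Il1rn, the receptors Il1r1 and Il18r1, the decoy receptor Il1r2 and the accessory receptor Il1rap. They were chosen by symbol, as the probe sets annotated to 1 of these symbols alone, and all 9 genes were found, with 16 of the 45101 probe sets of the array and 9 of 18193 genes. mRNA expression was measured with Affymetrix mouse expression arrays, and the values are RMA log2 values, that is, background-corrected, normalized between arrays and summarized per probe set. The cells came from newborn FVB mice and form 4 groups of 10 arrays. Undifferentiated keratinocytes (2 arrays) were kept at 0.05 mM calcium, and differentiated keratinocytes (4 arrays) at 0.4 mM calcium for 2 days. A-C/EBP keratinocytes (2 arrays) were differentiated in the same way while expressing A-C/EBP, a dominant negative of the C/EBP transcription factors, from a tetracycline-regulated transgene that was switched on by taking doxycycline out of the medium. 5-AZA keratinocytes (2 arrays) were differentiated after addition of 5-azacytidine, an inhibitor of DNA methylation, at 1 µM. The methods place this addition 6 hours after seeding and the labels after 1 day. The sources used here do not state whether the differentiated cells carried the transgene or had been in doxycycline, so these cannot be told apart from A-C/EBP.

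Interleukin 1 alpha and beta bind the receptor encoded by Il1r1, which then recruits the accessory protein encoded by Il1rap and signals through MyD88 and IRAK kinases to NF-κB and MAP kinases. The product of Il1rn occupies the same receptor without signalling, and that of Il1r2 binds the ligand without signalling. Interleukin 18 uses a receptor encoded by Il18r1 with an accessory chain encoded by Il18rap, and the receptor of interleukin 33 shares the product of Il1rap. Keratinocytes are known to store several of these ligands, which act on neighbouring cells after damage to the epidermis.

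The medians of the arrays lay between 4.64 and 4.78, and RMA gives no call of detection, so a value under the median of its array is not shown to exceed background. All 9 measured keratinocyte markers lay above the median on all 10 arrays. Of the markers of other cells, 4 of 6 for Langerhans and dendritic cells, 4 of 5 for mast cells, 4 of 5 for endothelial cells, 2 of 5 for T cells, 2 of 7 for macrophages and monocytes, 1 of 6 for fibroblasts and 0 of 5 for melanocytes lay under the median on every array. Above the median on every array were 0, 1, 1, 2, 5, 2 and 4 of them in that order. The mean of the 5 melanocyte markers was 8.60 to 9.53. The arrays differed in their spread, with 5 narrow (interquartile range up to 3.41) and 5 wide (3.48 or more), and every condition held both kinds. In undifferentiated, A-C/EBP and 5-AZA keratinocytes replicate 1 was wide and replicate 2 narrow. There this split cannot be told apart from the replicate number. Differences given below within wide or narrow arrays set 1 array of a condition against 1 or 2 of the other. A-C/EBP replicate 2 had the highest hybridization controls (11.3, against 9.03 to 10.6 on the others), and 5-AZA replicate 2 the largest gap between the 3′ and 5′ probe sets of actin (0.68, against 0.09 to 0.37). The sources do not say that replicates are separate cultures. The p-values therefore reflect the scatter among these arrays alone, which could be technical, and precision is limited by how few arrays there are.

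**Figure D1:**
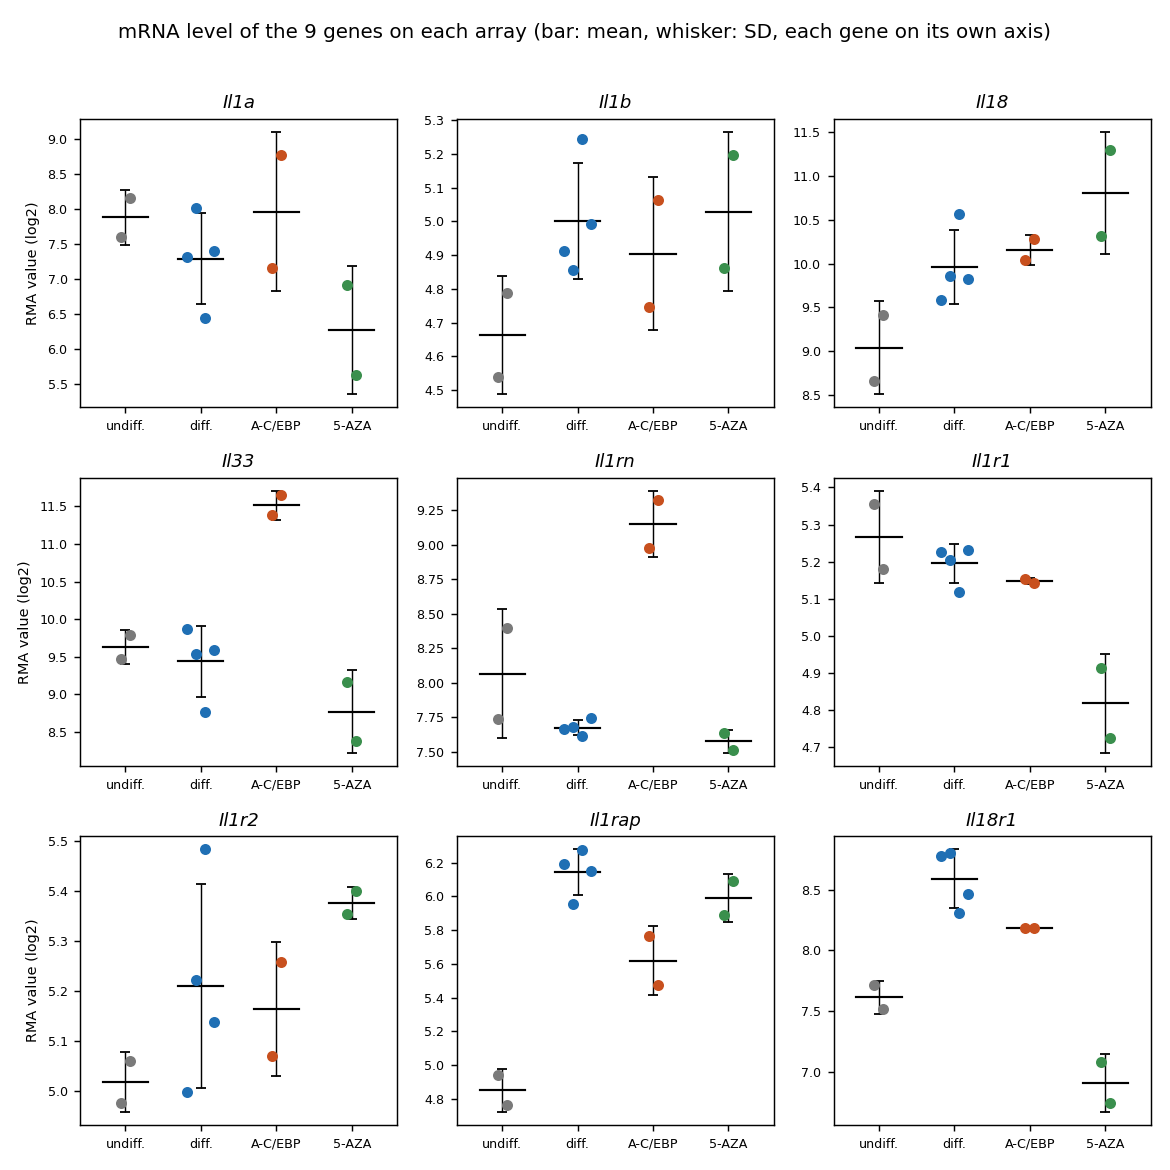
RMA value (log2, each gene on its own vertical axis) of the 9 genes on the 10 arrays, with the 2 undifferentiated, 4 differentiated, 2 A-C/EBP and 2 5-AZA arrays as points, the mean as a bar and the SD as a whisker. Il33 and Il1rn stood apart on both A-C/EBP arrays, Il18r1 was lowest on both 5-AZA arrays, and Il1rap was lowest on both undifferentiated arrays.

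Upon differentiation, mRNA levels of 2 receptor genes rose, and no ligand passed the test. Il1rap, the shared accessory chain, rose by 1.29 on the log2 scale and Il18r1, the binding chain of the interleukin 18 receptor, by 0.98. The 2 of 9 genes that passed (limma, Benjamini-Hochberg adjusted p under 0.05 over all genes) stand beside a background of 15.8% of all genes called in this comparison, 6.64% higher and 9.14% lower. The median difference of the 9 genes was 0.19, against −0.01 over all genes.

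Il1rap is represented by 5 probe sets, and these did not behave alike. Probe set 1421844_at was at 6.81 and 6.99 in undifferentiated and at 8.49, 8.48, 8.68 and 8.62 in differentiated keratinocytes. Probe set 1421843_at was at 5.71 and 5.79, against 7.53, 7.16, 7.75 and 7.52. Probe set 1449585_at was at 4.97 and 4.14, around the array median, against 7.52, 7.33, 8.0 and 7.48. In each of these 3 probe sets all differentiated arrays were above all undifferentiated arrays. The other 2, 1439697_at and 1442614_at, stayed under the median of every array and are not shown to exceed background. The mean of the 5 differed by 1.29 (SE 0.13, limma adjusted p = 0.000155), and the mean of the 3 probe sets above the array median on at least 1 array by 2.14 (SE 0.18, limma adjusted p = 2.09e-05), so the size of the rise depends on which probe sets are averaged. The choice of these 3 was not planned. Tested alone over all probe sets, 1421844_at rose by 1.67 (limma adjusted p = 5.64e-05), 1421843_at by 1.74 (0.000411) and 1449585_at by 3.02 (0.000224), where 10.6% of probe sets were called. Since 1449585_at was under the median on undifferentiated replicate 2, its value there is not shown to exceed background, and the sizes 3.02 and 2.14 rest in part on it.

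**Figure D2:**
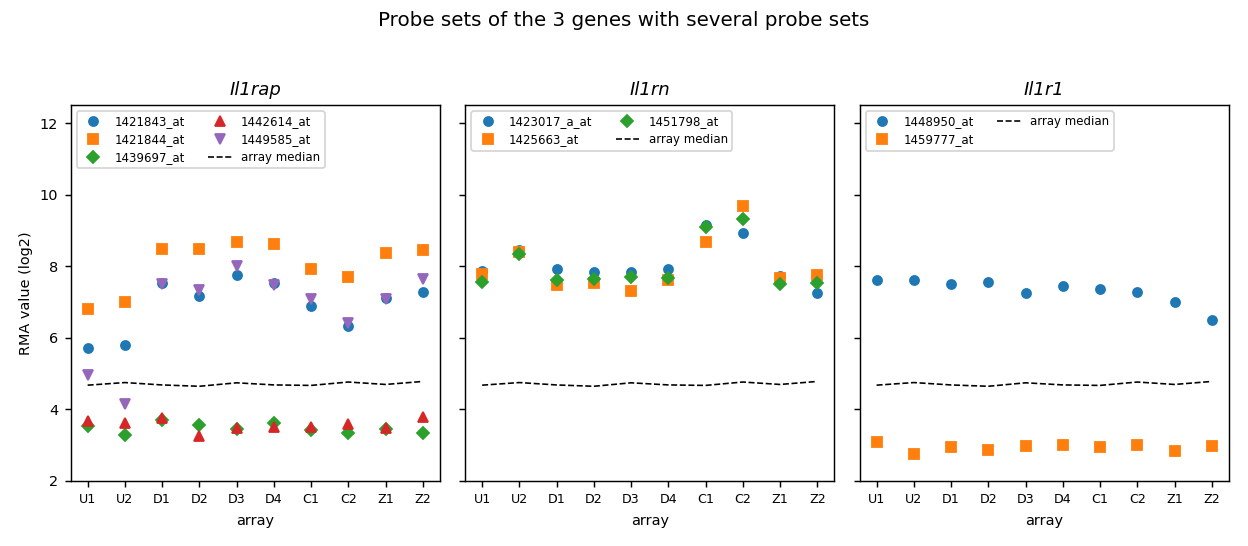
RMA value (log2) of each probe set of Il1rap, Il1rn and Il1r1 on the 10 arrays, where U, D, C and Z stand for undifferentiated, differentiated, A-C/EBP and 5-AZA and the digit for the replicate, with the median of each array as a dashed line. Of the probe sets of Il1rap 3 rose upon differentiation while 2 stayed under the median, the 3 of Il1rn were higher on both A-C/EBP arrays than on all differentiated arrays, and 1 of the 2 of Il1r1 stayed under the median.

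Il18r1 has 1 probe set. It was at 7.71 and 7.51 in undifferentiated and at 8.78, 8.80, 8.31 and 8.47 in differentiated keratinocytes, with no overlap of the groups. The rise of 0.98 (SE 0.16, limma adjusted p = 0.00227) was 0.91 within the wide and 1.04 within the narrow arrays, and that of Il1rap was 1.23 and 1.35. Il18rap, which encodes the other chain of the interleukin 18 receptor and belongs to the list of related genes below, was at 4.78 and 4.83 before and at 5.52 to 6.16 after differentiation. It rose by 0.98 as well (SE 0.16, limma adjusted p = 0.00226). Its undifferentiated values were close to the medians of these arrays (4.67 and 4.745), so the size of its rise is uncertain. Of the markers of other cells, Csf1r (0.82) and Cd14 (0.70), 2 of the 7 macrophage and monocyte markers, and Thy1 (0.88), 1 of the 5 T cell markers, rose upon differentiation too. The mean of the macrophage and monocyte list was 5.74 to 5.92 in undifferentiated and 5.73 to 6.17 in differentiated keratinocytes, and that of the T cell list 4.43 to 4.46 and 4.42 to 4.78, with 5 of the 7 and 2 of the 5 above the median on every array and 2 and 2 under it, among them Ptprc, Itgam and Cd3g. Tyr, 1 of the 5 melanocyte markers, fell by 0.51, and the keratinocyte markers Itga6, Trp63 and Krt5 fell by 1.61, 1.42 and 0.75 while Ivl rose by 0.80. Krt1 and Krt10 of the same list did not pass. Their means were 10.08 and 9.14 in undifferentiated and 8.79 and 7.93 in differentiated keratinocytes. The mean of the keratinocyte list was 10.58 to 11.14 and 10.09 to 10.35. The part of the markers in these rises was not tested, and in bulk RNA fewer cells of a type and less RNA per cell cannot be told apart.

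The promoters of both genes are shown because they rose together. They are the 300 bases around an annotated start, 250 before it and 50 from it onwards, of RefSeq on GRCm38.p6, with letters of a searched motif in capitals. The motifs were TGACGTCA (the CREB site), TTGCGCAA and the looser TTGCNNAA (C/EBP), TGACTCA (AP-1), an NF-κB motif (GGGA, any 4 bases, CC) and TATAAA, sought on both strands. TTGCGCAA matches are a subset of TTGCNNAA matches. Of 32851 such promoters, 1.79%, 0.183%, 10.8%, 5.2%, 20.7% and 13.6% hold them in that order. All 9 genes had an entry, 15 in all. That of Il1rap (chr16:26581455-26581754, + strand) holds 33 CpG dinucleotides, against a median of 7, and 1 NF-κB motif match that starts at −119 from the annotated start. The first of 3 entries of Il18r1 (chr1:40465302-40465601, + strand) holds 5 CpG dinucleotides and no match, nor do the other 2.
Il1rap: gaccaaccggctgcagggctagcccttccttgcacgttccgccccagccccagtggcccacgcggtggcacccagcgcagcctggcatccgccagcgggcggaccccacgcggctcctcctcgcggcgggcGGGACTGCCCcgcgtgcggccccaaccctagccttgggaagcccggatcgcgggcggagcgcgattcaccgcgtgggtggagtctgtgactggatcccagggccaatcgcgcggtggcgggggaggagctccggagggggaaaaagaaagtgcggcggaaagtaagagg
Il18r1: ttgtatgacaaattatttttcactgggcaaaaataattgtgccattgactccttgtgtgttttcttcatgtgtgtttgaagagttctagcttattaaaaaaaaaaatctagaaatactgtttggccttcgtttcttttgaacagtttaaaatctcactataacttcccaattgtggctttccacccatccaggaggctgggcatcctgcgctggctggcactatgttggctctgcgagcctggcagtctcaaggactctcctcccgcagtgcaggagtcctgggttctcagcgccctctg

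Of the ligands, Il18 was the nearest to passing. Its 1 probe set was at 8.67 and 9.42 in undifferentiated and at 9.59, 9.86, 10.57 and 9.83 in differentiated keratinocytes. The groups did not overlap, and the difference was 0.92 (SE 0.33, limma adjusted p = 0.0958). With the wide and narrow arrays as a block, an alternative added after the data were seen, it passed at the same difference (limma adjusted p = 0.00877). The difference was 0.54 without undifferentiated replicate 1 and 1.30 without undifferentiated replicate 2, so its size depends on single arrays. Il1a, which keratinocytes make constitutively, was at 7.61 and 8.16 against 7.32, 8.01, 6.44 and 7.40. These arrays overlapped, and the difference was −0.59 (SE 0.52, limma adjusted p = 0.602). Il33, a nuclear alarmin, was at 9.47 and 9.79 against 9.88, 9.54, 8.77 and 9.58, with overlap and a difference of −0.19 (SE 0.29, limma adjusted p = 0.813).

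Il1b was close to the array median throughout. It was at 4.54 and 4.79 in undifferentiated and at 4.91, 4.86, 5.24 and 4.99 in differentiated keratinocytes, and its range over all 10 arrays was 4.54 to 5.24, so its differences may lie within background. Il1rn was at 7.73 and 8.40 against 7.67, 7.68, 7.62 and 7.74. Its undifferentiated replicates were farther apart than the differentiated arrays, and the difference of −0.39 did not pass (SE 0.17, limma adjusted p = 0.176). The difference was −0.72 without undifferentiated replicate 1 and −0.06 without undifferentiated replicate 2, so its size rests on single arrays. Il1r1 has 1 probe set above the median, 1448950_at, at 7.62 on both undifferentiated and at 7.26 to 7.57 on the differentiated arrays, and 1 under it on every array. Neither passed the test. The decoy receptor Il1r2 was at 4.98 and 5.06 against 5.00 to 5.48, also near the median, with a difference of 0.19 (SE 0.13, limma adjusted p = 0.449). In all, 4 of the 9 genes, Il1b, Il18, Il1rap and Il18r1, were higher on every differentiated array than on either undifferentiated array and 0 lower, where 15.1% and 19% of all genes were so.

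With A-C/EBP, Il33 and Il1rn rose and no gene of the 9 fell by the test. Il33 was at 11.38 and 11.65, above all 8 other arrays, of which the highest was a differentiated array at 9.88. Il1rn was at 8.98 and 9.32, and the highest of the other arrays was an undifferentiated one at 8.40. Both A-C/EBP arrays thus exceeded not only the differentiated but also the undifferentiated arrays for both genes. Il33 rose by 2.08 (4.22-fold, SE 0.29, limma adjusted p = 0.00888) and Il1rn by 1.47 (2.78-fold, SE 0.17, limma adjusted p = 0.00369). The 2 of 9 genes that passed stand beside 2.06% of all genes (1.49% higher and 0.572% lower), and the median of the 9 was −0.05, against 0.01 over all genes. Within the wide arrays Il33 differed by 1.65 and within the narrow arrays by 2.50, and Il1rn by 1.27 and 1.67. Without A-C/EBP replicate 2 neither passed, at 1.94 (limma adjusted p = 0.107) and 1.30 (limma adjusted p = 0.0515), and 54 genes of the array were called in place of 375. The mean of the keratinocyte markers was 10.78 to 11.09 on the A-C/EBP arrays and 10.09 to 10.35 on the differentiated arrays. In the limma fit of this comparison 0 of the 48 measured markers of any cell type passed. An unadjusted limma p under 0.05 was found for 7 of them, and for 2469 of all 18193 genes. The part of the markers in the result was not tested.

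The 3 probe sets of Il1rn, which encodes secreted and intracellular forms of the antagonist, all rose. Probe set 1423017_a_at was at 9.17 and 8.94 with A-C/EBP, against 7.91, 7.85, 7.84 and 7.94. Probe set 1425663_at was at 8.68 and 9.69, against 7.48, 7.53, 7.30 and 7.62. Probe set 1451798_at was at 9.09 and 9.33, against 7.61, 7.65, 7.71 and 7.67. None overlapped, although 1425663_at differed by about 1 between the A-C/EBP replicates. Their rises were 1.17, 1.70 and 1.55 (limma adjusted p over all probe sets 0.0222, 0.0218 and 0.00782), where 0.999% of probe sets were called. Which of the annotated starts each probe set reads was not analysed here.

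The promoters of the pair that rose with A-C/EBP are shown next, with the same motifs. The first of 3 entries of Il1rn (chr2:24336610-24336909, + strand) holds an AP-1 match on the other strand at −141 and an NF-κB motif match at −54. The others hold 1 TATAAA match on the other strand after the start. The first Il33 entry (chr19:29924863-29925162, + strand) holds TATAAA at −203, and the second (chr19:29945540-29945839, + strand) TTGCNNAA at −85 and TATAAA at −29. Among the 15 entries of the 9 genes, 1 other held TTGCNNAA, that of Il1r1 at −133, and none held TTGCGCAA or TGACGTCA. A match describes the letters only.
Il1rn, entry 1: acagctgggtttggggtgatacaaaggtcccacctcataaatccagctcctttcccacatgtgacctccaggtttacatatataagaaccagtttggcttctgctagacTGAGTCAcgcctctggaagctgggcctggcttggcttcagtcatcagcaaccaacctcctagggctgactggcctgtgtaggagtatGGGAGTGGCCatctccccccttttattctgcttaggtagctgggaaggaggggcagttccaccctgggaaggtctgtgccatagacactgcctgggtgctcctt
Il33, entry 1: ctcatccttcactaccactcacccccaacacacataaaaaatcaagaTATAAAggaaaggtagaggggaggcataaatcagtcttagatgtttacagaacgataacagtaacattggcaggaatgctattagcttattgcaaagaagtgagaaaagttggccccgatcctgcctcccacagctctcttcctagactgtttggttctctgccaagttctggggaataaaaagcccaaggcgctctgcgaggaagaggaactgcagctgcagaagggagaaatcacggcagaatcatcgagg
Il33, entry 2: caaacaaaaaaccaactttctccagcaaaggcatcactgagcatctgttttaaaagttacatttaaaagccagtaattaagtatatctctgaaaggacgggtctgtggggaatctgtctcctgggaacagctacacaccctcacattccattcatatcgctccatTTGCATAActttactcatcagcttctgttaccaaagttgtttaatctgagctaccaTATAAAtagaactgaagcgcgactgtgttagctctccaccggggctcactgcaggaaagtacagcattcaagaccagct

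The receptor genes that rose upon differentiation were lower with A-C/EBP, short of the threshold. Il1rap was at 5.77 and 5.47 (mean of 5 probe sets), against 6.19, 5.95, 6.27 and 6.15, so the arrays did not overlap. The difference was −0.52 (SE 0.13, limma adjusted p = 0.0739). It passed with the wide and narrow arrays as a block, which was not planned (limma adjusted p = 0.0408). With the replicate number as a block it did not pass (−0.46, limma adjusted p = 0.118). Nor did it with the hybridization controls as a covariate (−0.44, limma adjusted p = 0.0955). The difference was −0.38 without A-C/EBP replicate 2 and −0.67 without replicate 1. Where the 2 probe sets under the median on every array were left out, Il1rap was at 7.30 and 6.81 against 7.85, 7.65, 8.14 and 7.87, and fell by 0.82 (SE 0.18, limma adjusted p = 0.0314). This choice of probe sets was not planned either. Of single probe sets, 1421844_at, at 7.93 and 7.70, fell by 0.75 (limma adjusted p = 0.0239), while 1421843_at (−0.89) and 1449585_at (−0.83) did not pass. The mean of the 3 probe sets on the A-C/EBP arrays stayed above the undifferentiated arrays, which were at 5.83 and 5.64.

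Il18r1 was at 8.19 and 8.18 with A-C/EBP, below all differentiated arrays and above both undifferentiated arrays. The difference from the differentiated arrays was −0.41 (SE 0.16, limma adjusted p = 0.281). Of the other ligands, Il1a was at 7.16 and 8.77, within and above the range of the differentiated arrays, with a difference of 0.67 (SE 0.52, limma adjusted p = 0.691). It was −0.20 within the wide and 1.54 within the narrow arrays. Il18 was at 10.04 and 10.28 (0.20), Il1b at 4.75 and 5.06 (−0.10), Il1r2 at 5.07 and 5.26 (−0.05), and the mean of the Il1r1 probe sets at 5.15 and 5.14 (−0.05), all overlapping the differentiated arrays. By arrays that did not overlap, 2 of the 9 genes were higher and 2 lower, where 12.6% and 8.81% of all genes were.

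**Figure D3:**
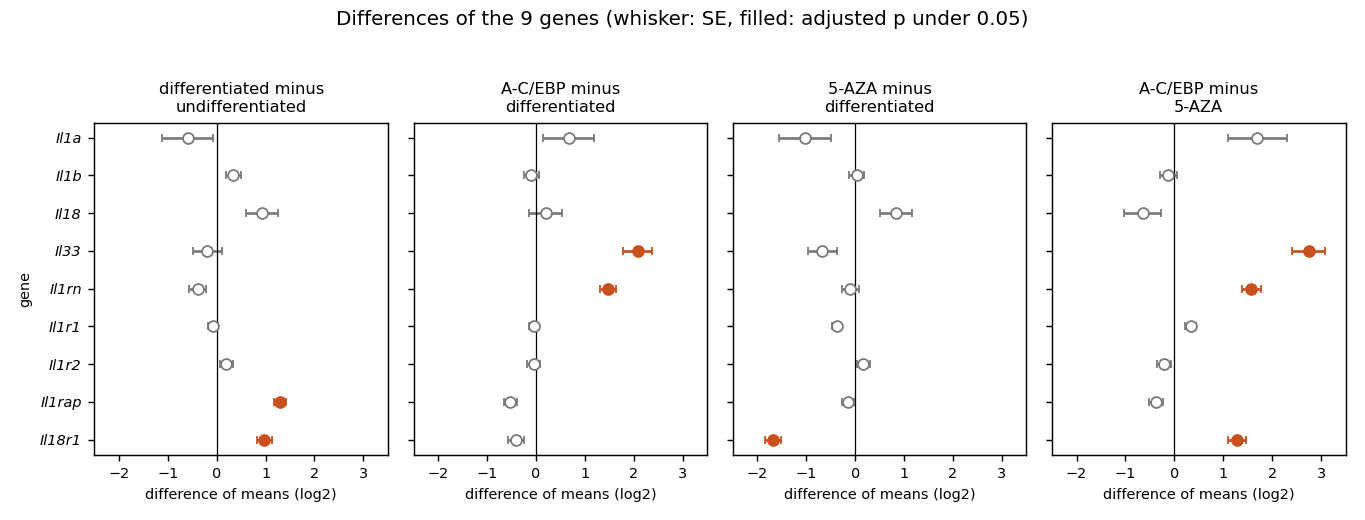
Difference of means (log2, horizontal axis) with its SE for the 9 genes in 4 comparisons, filled where the limma adjusted p was under 0.05. Il1rap and Il18r1 rose upon differentiation, Il33 and Il1rn with A-C/EBP, Il18r1 fell by 1.68 with 5-AZA, and Il33, Il1rn and Il18r1 were higher with A-C/EBP than with 5-AZA.

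With 5-AZA, Il18r1 fell and none of the other 8 genes passed. It was at 7.08 and 6.74, below the differentiated arrays (8.31 to 8.80) and also below the undifferentiated arrays (7.71 and 7.51). The fall was 1.68 on the log2 scale (3.20-fold, SE 0.16, limma adjusted p = 0.00823), and the 1 of 9 genes called stands beside 0.286% of all genes (0.17% higher and 0.115% lower). It was −1.54 within the wide and −1.82 within the narrow arrays. Without 5-AZA replicate 2 the difference was −1.51 and did not pass (limma adjusted p = 0.0625), and 2 genes of the array were called in place of 52. Il18rap, the other receptor chain, was at 4.84 and 5.09 with 5-AZA, below all differentiated arrays, and did not pass. The order of Il18r1 over the conditions was differentiated (8.59), A-C/EBP (8.18), undifferentiated (7.61) and 5-AZA (6.91), and no neighbours in it overlapped. Ivl, which encodes involucrin of the cornified envelope, was the only measured cell type marker that passed with 5-AZA, and fell by 1.38. Of the 48 measured markers, 8 had an unadjusted limma p under 0.05, as did 1655 of all 18193 genes. The part of the markers in the result was not tested.

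Il1r1 was lower on both 5-AZA arrays as well. Its probe set 1448950_at was at 6.99 and 6.49, below all 8 other arrays, of which the lowest was a differentiated one at 7.26. The difference was −0.71 (SE 0.15, limma adjusted p over all probe sets 0.192) and did not pass, where 0.0488% of probe sets were called. Il1a was at 6.91 and 5.63, overlapping the differentiated arrays, with a difference of −1.02 (SE 0.52, limma adjusted p = 0.621). Il33 was at 9.16 and 8.38 (−0.67, SE 0.29, limma adjusted p = 0.542). Il18 went the other way, at 10.31 and 11.30 (0.84, SE 0.33, limma adjusted p = 0.467). For each of Il1a, Il33, Il18, Il1r1 and Il18r1, 5-AZA replicate 2, the array with the large actin gap, lay farther from the differentiated mean than replicate 1. The same held for Il1b, Il1rn and Il1r2, while for Il1rap replicate 2 lay nearer. The share of all genes for which this held was not counted. The part of the gap in these values was not tested.

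Il1rn, which stood out with A-C/EBP, was at 7.64 and 7.52 with 5-AZA, and the difference of −0.10 (SE 0.17, limma adjusted p = 0.921) did not pass. Il1rap was at 5.89 and 6.09 (−0.15, SE 0.13, limma adjusted p = 0.799), Il1b at 4.86 and 5.20 (0.03) and Il1r2 at 5.36 and 5.40 (0.17), all within or overlapping the differentiated range. The median of the 9 differences was −0.15, against 0.04 over all genes, and 0 of the 9 genes were higher and 2, Il18r1 and Il1r1, lower on arrays that did not overlap, where 11.2% and 5.15% of all genes were.

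A-C/EBP and 5-AZA arrays were also compared with each other, because the comparisons above share the 4 differentiated arrays. Il33, Il1rn and Il18r1 were higher with A-C/EBP and passed, by 2.75 (SE 0.34, limma adjusted p = 0.00366), 1.57 (SE 0.19, limma adjusted p = 0.00366) and 1.27 (SE 0.18, limma adjusted p = 0.00711). The 3 of 9 genes stand beside 3.19% of all genes (2.06% higher and 1.13% lower), and the median of the 9 was 0.33, against −0.03. Without 5-AZA replicate 2 the difference of Il18r1 was 1.10 and did not pass (limma adjusted p = 0.0643). Of the 48 cell type markers, Ivl of keratinocytes was higher (2.14) and Pdgfra of fibroblasts lower (−0.58) with A-C/EBP and passed. An unadjusted limma p under 0.05 was found for 11 of the 48, and for 2808 of all 18193 genes. The mean of the keratinocyte markers was 10.78 to 11.09 with A-C/EBP and 9.90 to 10.14 with 5-AZA, and that of the fibroblast markers 4.57 to 4.98 and 5.13 to 5.55. Their part in the result was not tested. Il1a differed by 1.69 without overlap but with a wide error (SE 0.61, limma adjusted p = 0.203), and by 0.25 within the wide and 3.14 within the narrow arrays. Il1rap was lower with A-C/EBP by 0.37 and did not pass. Of the 9 genes, 5 were higher and 3 lower on arrays that did not overlap, where 18.2% and 25.2% of all genes were in this comparison of 2 against 2 arrays.

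The other genes of interleukin 1 signalling were taken from a list of 69, of which 61 were measured. They are other family members (10 of 12 measured), genes of processing and release (9 of 12), signalling genes (24 of 27) and genes that interleukin 1 is known to induce in epithelia (18 of 18). Il36rn, Il1rl1, Nlrp1a, Nlrp1b, Nlrc4, Irak4, Chuk and Nfkb1 were not analysed here. The list was chosen with earlier results of these data known, so its shares beside the background, here and below, are description only. Upon differentiation 9 of the 61 rose, 2 fell and 50 did not pass, which is 18.0% beside the background of 15.8%. Of the 11 that passed, 3 were other family members, 1 a gene of processing and release, 3 signalling genes and 4 inducible genes. Sigirr, an inhibitory receptor of the family, was at 5.47 and 5.48 before and at 6.18 to 6.34 after differentiation and rose by 0.79 (SE 0.09, limma adjusted p = 0.000327). Tnfaip3, which encodes the NF-κB inhibitor A20, was at 7.06 and 7.21 before and at 8.09 to 8.59 after, and rose by 1.13 (SE 0.17, limma adjusted p = 0.00127).

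Irak2 (0.63) and Mapk8 (0.49) were the other signalling genes that rose. Among the inducible genes, Defb4, which encodes a beta defensin, rose by 3.77 (from 4.69 and 5.09 to between 7.76 and 9.29), Mmp9, a matrix protease, by 2.18, and the colony-stimulating factors Csf2 and Csf3 by 2.09 and 0.63. On undifferentiated replicate 1 Defb4 was close to the median of the array (4.67), so the size of its rise is uncertain. The genes that fell were Capn1, a calpain, a protease class that cleaves the interleukin 1 alpha precursor, by 1.31, and Il36a, a ligand listed as Il1f6 in the annotation. Il36a was at 6.97 and 8.12 before and at 5.38 to 6.65 after differentiation and fell by 1.71. Omission of a single differentiated array ended some of these calls. Csf3 did not pass without replicate 1, 2 or 4, Irak2 without replicate 1, 3 or 4, and Capn1 without replicate 2. Of these 11 genes, 6 still passed without undifferentiated replicate 1 and 6 without replicate 2, and Sigirr, Tnfaip3, Il18rap and Defb4 passed in both.

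With A-C/EBP, 8 of the 61 rose, 1 fell and 52 did not pass, which is 14.8% beside the background of 2.06%. The signalling genes among them were the NF-κB subunits Relb (1.46) and Nfkb2 (0.57) and the NF-κB inhibitors Nfkbia (1.25) and Nfkbie (0.88). Nfkbie was under the median on all differentiated arrays (3.71 to 3.93) and on A-C/EBP replicate 1 (4.37) and is not shown to exceed background there, so the size of its difference is uncertain. Nfkbia was at 10.02 and 10.91 with A-C/EBP, against 8.94 to 9.38 on the differentiated arrays. Of the inducible genes, the chemokines Ccl20 (2.95) and Cxcl2 (1.37) and the cytokine Tnf (1.06) rose, and Ptgs2, which encodes the prostaglandin synthase COX-2, fell by 1.25. The inducible genes were split in direction. By arrays that did not overlap, 7 of the 18 were higher and 5 lower, where 12.6% and 8.81% of all genes were. Casp4, which encodes an inflammatory caspase, rose by 1.27 and was at 4.75 and 5.85 with A-C/EBP. On the differentiated arrays it was at 3.86 to 4.17, under the median and not shown to exceed background, so the size of its rise is uncertain too. Il33 and Il1rn thus rose together with 8 genes of the list, while the median over all 61 was 0.05. Without A-C/EBP replicate 2 only Ccl20 of these 9 still passed, 2 did without differentiated replicate 1 or 2, 4 without replicate 3, 3 without replicate 4 and 6 without A-C/EBP replicate 1.

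With 5-AZA, 0 of the 61 passed in the limma fit. An unadjusted limma p under 0.05 was found for 8 of the 61, and for 1655 of all 18193 genes. Of the 18 inducible genes, 15 had a difference below 0, where 7189 of all 18193 genes did. The median of the 18 was −0.62, against 0.04 over all genes. The part of 5-AZA replicate 2, the array with the large actin gap, in these differences was not tested. The methods' t-test with adjustment called 0 genes of the array in this comparison. In the direct comparison, 8 of the 61 were higher with A-C/EBP than with 5-AZA and 0 lower, which is 13.1% beside 3.19%. They were Nfkbia (1.70) and 7 inducible genes, namely Ccl20 (4.15), Icam1 (2.57), an adhesion molecule, Cxcl1 (2.28), Plau (2.23), the urokinase, Csf2 (2.19), Cxcl2 (1.96) and Tnf (1.18). Ccl20 was at 10.34 and 11.47 with A-C/EBP and at 6.83 and 6.67 with 5-AZA. Cxcl2 on both 5-AZA arrays (4.66 and 4.18) and Plau on replicate 2 (4.17) were under the median and are not shown to exceed background there. Without 5-AZA replicate 2 only Ccl20 of these 8 still passed, without A-C/EBP replicate 2 Ccl20, Cxcl2 and Nfkbia did, and without 5-AZA replicate 1 5 did.

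**Figure D4:**
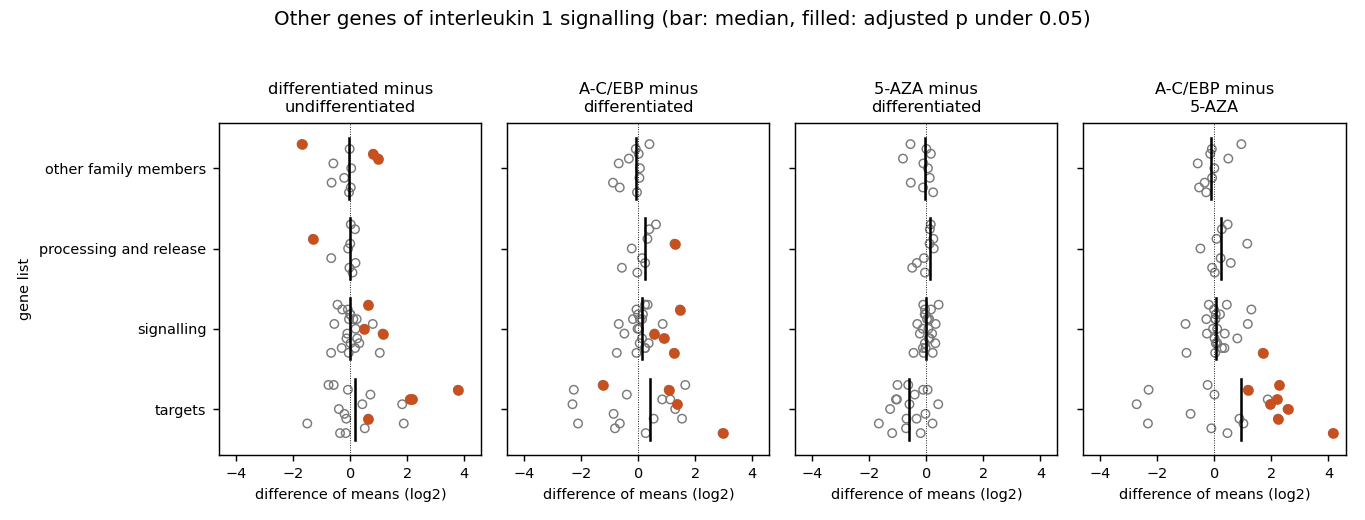
Difference of means (log2, horizontal axis) of the 61 measured genes of the list in 4 comparisons, by gene list, with the median as a bar and filled points where the limma adjusted p was under 0.05. With A-C/EBP the inducible genes spread from below −2 to 2.95, and with 5-AZA none of the 61 passed.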

How the data were processed

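mRNA expression in 10 samples was measured on Affymetrix Mouse Genome arrays. The authors made the deposited log2 values with RMA in Affymetrix Expression Console, per the submitters' processing notes, and they were used as deposited. The table holds 45101 probe sets (64 of them array controls), of which 34945 are annotated to 1 symbol and were averaged to 18193 genes. All arrays entered 1 limma fit (3.58.1, R 4.3.3) with a mean per condition and 6 residual degrees of freedom, and two-sided p-values were adjusted by Benjamini-Hochberg over all genes, or over 45037 probe sets for single probe sets. The fit was tested on simulated data. The text names all 9 genes with their probe sets and those of the list of 61 that passed, up to 6 per subgroup and comparison. Members, lists and motifs were chosen with earlier results of these data known. Alternatives were other normalizations, probe set summaries, filters, covariates and blocks, the t-test of the methods, and omission of each array. Immunoprecipitation data and A-Fos samples are not analysed here. Gene names and promoters came from the platform annotation and RefSeq.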

Additional observations from a re-analysis of the deposited data

How the results depend on the processing

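Of 880 values of the 9 genes under alternatives, 823 kept their direction and their side of the threshold. Part of these differences could not change. For the 6 genes with 1 probe set, the choice of probe sets leaves the difference as it was. Omission of an array outside a comparison does so too. The count is therefore no measure of robustness. With the methods' t-test, which the methods do not say was run per gene, and adjustment, 1 of the 9 genes passed in differentiation and 0 in the other comparisons (864 and 0 genes of the array). Of the 9, 4, 4, 4 and 5 differed by more than 0.5 in differentiation, A-C/EBP, 5-AZA and A-C/EBP minus 5-AZA (2929, 1227, 724 and 1824 genes of the array, or 16.1%, 6.74%, 3.98% and 10%). Unadjusted, the t-test called 1868, 1207 and 1377 genes in the last 3, and 2 of the 9 with 5-AZA. Over omission of each array, 0 to 2 of the 9 passed with A-C/EBP and 0 to 1 with 5-AZA, and 1435 to 2891, 54 to 362, 2 to 57 and 125 to 628 genes of the array.

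Replicate numbers are not stated to mark shared cultures, only 2 numbers are common to all conditions, and the title and description of A-C/EBP replicate 1 disagree on its number. The deviations of same-numbered arrays correlated at r = 0.23 to 0.465 across genes between conditions. With the replicate number as a block, 773, 398 and 1384 genes were called with A-C/EBP, 5-AZA and in A-C/EBP minus 5-AZA, and 2 of the 9 with 5-AZA. Il18 then passed in differentiation (0.68) and with 5-AZA (1.08), Il18r1 with A-C/EBP (−0.61), and Il33 in differentiation (0.075), Il1b (0.021) and Il1r2 (0.054) with A-C/EBP turned sign without passing. Numbers 3 and 4 occur among the differentiated arrays alone. Under this block, differences that involve differentiated arrays therefore rest on their replicates 1 and 2. Blocking and the loss of the other differentiated arrays cannot be told apart in these values. A block for narrow and wide arrays, added after seeing the data, called 971, 189 and 1189 genes. Only the compared conditions in the fit gave 24 genes with 5-AZA and 96 in A-C/EBP minus 5-AZA, median centring gave 24 with 5-AZA, and the hybridization controls as a covariate 80. Il1rap passed with A-C/EBP under quantile normalization (−0.56) and in its brightest probe set (−0.75).

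The remaining changes of sign concern values that did not pass. Il1b with 5-AZA was at −0.022 after median centring, −0.02 after quantile normalization, −0.053 with the covariate and −0.138 to 0.195 over omitted arrays, and Il18 with A-C/EBP at −0.033 with the covariate. Over omitted arrays, Il33 (−0.349 to 0.034) and Il1r1 (−0.161 to 0.016) in differentiation, Il1a (−0.133 to 1.474), Il1b (−0.255 to 0.064) and Il1r2 (−0.141 to 0.048) with A-C/EBP, and Il1b in A-C/EBP minus 5-AZA (−0.291 to 0.043) spanned 0. The cause of these changes was not tested. Probe sets under the array median are not shown to exceed background.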
